A study of Mus musculus with 4 samples.

Results

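The contactin-associated proteins (CNTNAPs, or CASPRs) are single-pass membrane proteins of the neurexin superfamily. The mouse family has 7 genes, Cntnap1, Cntnap2, Cntnap3, Cntnap4, Cntnap5a, Cntnap5b and Cntnap5c, and all 7 were found by symbol among the 21933 genes counted in single-nucleus RNA sequencing (snRNA-seq) of the cerebral cortex in creatine transporter deficiency. Members were taken by name, with none left out for its values. The family as such was chosen by the control against CrT-KO differences of its genes across the cell types and layers of these same 4 libraries, and which of those differences weighed in the choice is not given in the sources used here. The genotype values and test results given here therefore describe these libraries and are not independent evidence.

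CNTNAPs carry a large extracellular part with laminin G-like and EGF-like domains and a short cytoplasmic tail that binds protein 4.1 scaffolds. Cntnap1 (Caspr) pairs with contactin-1 in the axon membrane and faces neurofascin on the glial side to form the paranodal junction beside the node of Ranvier. Cntnap2 (Caspr2) gathers Kv1 potassium channels at the juxtaparanode and is a known gene of autism and epilepsy. Cntnap4 has been linked to interneuron synapses, while the roles of Cntnap3 and of the Cntnap5 genes are less well described.

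Nuclei came from the right cortex of adult male mice on a C57BL/6J background, and each of the 4 libraries was 1 animal. The Control group (CrT+/y, n = 2) were wild-type littermates, and the CrT-KO group (CrT-/y, n = 2) carried a deletion within Slc6a8, the X-linked gene of the creatine transporter, and not limited to a cell type. The labels give no treatment. The libraries held 51507483 to 65240843 unique molecular identifiers (UMIs) in 8282 to 9295 nuclei, with medians of 5548 to 6700.5 UMIs per nucleus, and 96 barcodes occurred in more than 1 library. Slc6a8 itself checked the labels. In excitatory neurons it stood at 5.99 and 5.39 counts per 1000000 UMIs (CPM) in Control and at 1.36 and 1.47 CPM in CrT-KO (log2 fold change -2.01 ± 0.19 SE, adjusted p 0.000491 by edgeR).

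Clustering without the 7 genes placed 31994 of 34481 nuclei in named populations. These were 14889 excitatory neurons, 8419 inhibitory neurons, 5122 oligodendrocytes, 2219 microglia, 664 oligodendrocyte precursors (OPCs), 493 astrocytes and 188 endothelial cells and pericytes. Of the 11 excitatory markers 10 were highest in excitatory neurons, 8 of 10 inhibitory markers in inhibitory neurons, 13 of 14 astrocyte markers in astrocytes, and every marker of the other populations in its own. Inhibitory sub-clusters were named LAMP5-like, VIP-like, PV-like, SST-like and MSN-like, the last with markers of striatal projection neurons (2719 nuclei), which are not cells of the cortex named by the labels. In no named subclass were 2102 of the 8419 inhibitory nuclei. Of these, 563 nuclei in 3 sub-clusters had markers of excitatory neurons, Slc17a6 or Neurod6 and Neurod2, among their leading genes and none of the inhibitory markers. Excitatory sub-clusters were named by layer and projection as L2/3 IT-like, L4/5 IT-like, L5 ET-like, L5/6 NP-like, L6 CT-like, L6 IT-like and L6b-like (IT for intratelencephalic, ET for extratelencephalic, NP for near-projecting and CT for corticothalamic). The weakest of these names were L4/5 IT-like and L6 CT-like, with 4 of 7 and 5 of 8 markers highest there. A layer name was taken by 11249 of the 14889 excitatory nuclei. The others, in 10 of the 25 excitatory sub-clusters, counted in the excitatory class but in no layer. A cluster of 1914 nuclei led by Aldh1l1, Deptor and Il1rapl2 took no name, since a marker of another class stood among its leading genes and none of its own did. It was followed separately as the Deptor-led cluster, a choice made after its values were seen.

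In build GRCm38 (annotation GENCODE vM21) all but Cntnap3 lie on the plus strand. Cntnap2 (chr6:45059357-47304213) spans 2245 kb and is the gene with rank 5 by span among those counted. The spans are 903 kb for Cntnap5a (chr1:115684756-116587323), 713 kb for Cntnap5b (chr1:99772765-100485942), 641 kb for Cntnap5c (chr17:57769570-58410355), 313 kb for Cntnap4 (chr8:112570043-112882717), 168 kb for Cntnap3 (chr13:64736182-64903955) and 20.2 kb for Cntnap1 (chr11:101170523-101190724). Annotated exons cover 0.457% of the span of Cntnap2 and 0.613% of that of Cntnap5c, against 29.1% of that of Cntnap1, and the deposited counts include intronic reads. Cntnap1 is the only member that overlaps other genes of the count files, Plekhh3 and Ccr10 on the opposite strand. Whether counting used the strand is not given in the sources used here, so the counts of Cntnap1 could include reads of these genes.

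The 3 Cntnap5 genes are close copies of each other, which bears on whether a read can be given to 1 of them. Between the open reading frames of Cntnap5a and Cntnap5c 90.3% of aligned bases were identical, and the values for Cntnap5a with Cntnap5b and Cntnap5b with Cntnap5c were 89.8% and 90.0%. Identity was 72.0% between Cntnap3 and Cntnap4 and from 61.5% to 65.6% for all other pairs. The longest runs shared by the GENCODE vM21 transcripts of each Cntnap5 pair lie in coding exons. They are shown because a read of exons that lies wholly within one could come from either gene of the pair. The first lies in exon 10 of Cntnap5a (chr1:116188302-116188392) and of Cntnap5b (chr1:100164106-100164196), the second across exons 10 and 11 of Cntnap5a and Cntnap5c, and the third across exons 15 and 16 of Cntnap5b and Cntnap5c, all on the plus strand.
Cntnap5a and Cntnap5b: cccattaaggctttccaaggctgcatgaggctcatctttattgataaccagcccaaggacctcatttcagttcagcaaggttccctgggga
Cntnap5a and Cntnap5c: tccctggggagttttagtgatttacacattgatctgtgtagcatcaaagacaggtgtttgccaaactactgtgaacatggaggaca
Cntnap5b and Cntnap5c: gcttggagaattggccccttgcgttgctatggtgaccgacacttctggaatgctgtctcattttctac
These runs are 91, 86 and 68 bases long, and the third is shorter than the 75 bases of the study's reads. Of the 10871 windows of 75 bases in the Cntnap5a transcript, 17 also occurred in Cntnap5b and 12 in Cntnap5c, and 0 of the 3953 such windows of Cntnap5b occurred in Cntnap5c. Introns were not compared.

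RefSeq promoter windows of build GRCm38.p6 (250 bases before to 50 after a start) were found for 3 of the 7 genes, Cntnap2, Cntnap3 and Cntnap5b. The window of Cntnap5b (chr1:99772151-99772450, plus strand) is shown as that of the member whose genotype difference varied by layer, with each CG dinucleotide in capitals.
Cntnap5b promoter: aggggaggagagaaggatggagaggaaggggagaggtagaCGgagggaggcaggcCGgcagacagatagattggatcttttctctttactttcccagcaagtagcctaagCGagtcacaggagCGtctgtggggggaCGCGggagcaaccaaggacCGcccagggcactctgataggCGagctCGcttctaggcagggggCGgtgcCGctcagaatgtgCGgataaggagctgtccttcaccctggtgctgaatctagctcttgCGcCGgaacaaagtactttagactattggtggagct
The window ends before the gene start of the other annotation. It holds 14 CG dinucleotides, and 36.3% of the 32851 windows in the table hold as many or more. TATAAA, searched on both strands, was absent from it and present in 13.6% of all windows.

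The family held 1259210 UMIs over all nuclei, 0.552% of the total. Cntnap2 alone took 70.1% of these and ranked 23 of all genes by UMIs, followed by Cntnap5a (15.8%), Cntnap5b (6.01%), Cntnap5c (4.08%), Cntnap4 (2.89%), Cntnap3 (0.862%) and Cntnap1 (0.207%). Counting along the whole gene favours long genes, so levels of different genes were compared per kb of span. On that scale the order changed. In excitatory neurons Cntnap2 stood at 1.28 CPM per kb, Cntnap5a at 0.869, Cntnap1 at 0.520, Cntnap5b at 0.425, Cntnap4 at 0.354, Cntnap5c at 0.241 and Cntnap3 at 0.0797. In inhibitory neurons the levels were 3.35 CPM per kb for Cntnap2, 1.32 for Cntnap5a, 1.11 for Cntnap4, 0.939 for Cntnap3, 0.838 for Cntnap5c, 0.789 for Cntnap1 and 0.619 for Cntnap5b. All 7 genes thus had their higher level in inhibitory neurons, and for each of them the libraries of inhibitory neurons lay above those of excitatory neurons without overlap. These levels are a description with no test.

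**Figure D1:**
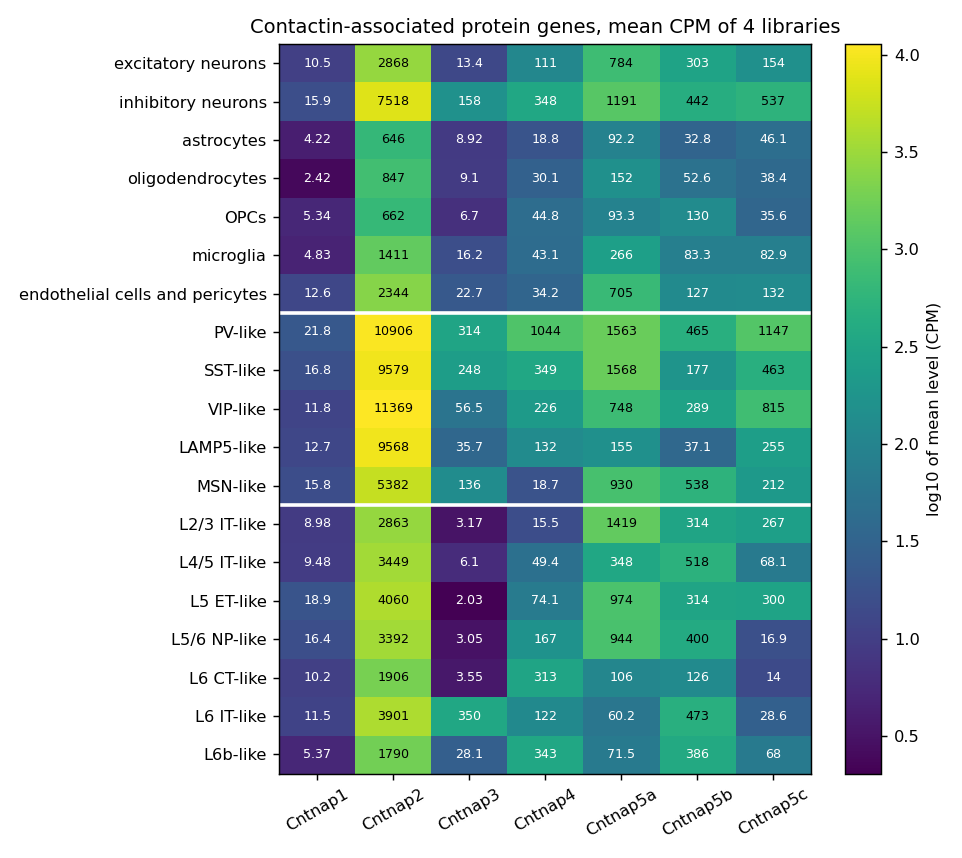
Mean level of each gene (columns, CPM, mean of 4 libraries) in 7 major populations, 5 inhibitory subclasses and 7 excitatory layers (rows), coloured by log10 of CPM. Cntnap2 is the highest gene in every row on the CPM scale, Cntnap3 and Cntnap4 peak in few rows, and Cntnap5c spans 14.0 CPM in L6 CT-like to 1147 CPM in PV-like nuclei.

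Among the axonal members, Cntnap2 ordered the neuronal classes most clearly. Its level was 7137, 7836, 7194 and 7905 CPM in inhibitory neurons (Control 1, Control 2, CrT-KO 1 and CrT-KO 2) and 2684, 2904, 2823 and 3059 CPM in excitatory neurons. VIP-like (mean 11369 CPM), PV-like (10906), SST-like (9579) and LAMP5-like nuclei (9568) were above MSN-like nuclei (5382), and all of these were above every excitatory layer. VIP-like and PV-like overlapped between libraries, as did SST-like and LAMP5-like. Among layers the level ran from 4060 CPM in L5 ET-like to 1906 in L6 CT-like and 1790 in L6b-like nuclei, and the last 2 were below all other layers without overlap.

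Cntnap1, the paranodal member, was the lowest in CPM, at 14.0 to 17.2 CPM in inhibitory and 9.16 to 11.7 CPM in excitatory neurons. Its highest subclass means were 21.8 CPM in PV-like and 18.9 CPM in L5 ET-like nuclei, and its lowest was 5.37 CPM in L6b-like nuclei. Over the 13 subclasses, layers and the Deptor-led cluster every neighbouring pair in that order overlapped between libraries.

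Cntnap3 and Cntnap4 had high levels in fewer subclasses. Cntnap3 had means of 350 CPM in L6 IT-like, 314 in PV-like, 248 in SST-like and 136 in MSN-like nuclei, against 2.03 to 8.12 CPM in L2/3 IT-like, L4/5 IT-like, L5 ET-like, L5/6 NP-like and L6 CT-like nuclei and the Deptor-led cluster. The 4 libraries of L6 IT-like nuclei held 443, 281, 378 and 298 CPM, and they overlapped with PV-like nuclei. Both L6 IT-like sub-clusters held it, at 347 CPM in the one led by Oprk1, Gfra1 and Col11a1 (245 nuclei) and at 323 CPM in the one led by Lef1, Arhgef6 and Gpc5 (36 nuclei). Cntnap4 was highest in PV-like nuclei, at 1113, 1004, 1057 and 1001 CPM, above the next subclass, SST-like (mean 349 CPM), without overlap. L6b-like (343 CPM) and L6 CT-like nuclei (313 CPM) came close to SST-like, and L2/3 IT-like (15.5 CPM) and MSN-like nuclei (18.7 CPM) were the lowest.

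The 3 Cntnap5 genes, alike in sequence, were laid out differently over the populations. Cntnap5a was highest in SST-like (mean 1568 CPM), PV-like (1563) and L2/3 IT-like nuclei (1419), which overlapped as neighbours, and lowest in L6 IT-like (60.2), L6b-like (71.5) and L6 CT-like nuclei (106). Cntnap5b stood between 289 and 538 CPM in 10 of the 13 subclasses, layers and the Deptor-led cluster, and was below that range in SST-like (177), L6 CT-like (126) and LAMP5-like nuclei (37.1). Its highest sub-cluster held 3734 CPM and was a PV-like sub-cluster of 55 nuclei led by Unc5b, Mctp2 and Egfl6. No PV marker was among the leading genes of that sub-cluster. Cntnap5c was highest in PV-like (1147), VIP-like (815) and SST-like nuclei (463), then in L5 ET-like (300) and L2/3 IT-like nuclei (267), and lowest in L6 CT-like nuclei (14.0). Within the excitatory class it was concentrated in a few sub-clusters. The L2/3 IT-like sub-cluster led by Plpp4, Unc13c and Ndst4 (1017 nuclei) had 790 CPM, and the L6 CT-like sub-cluster led by Syt6, Foxp2 and Rell1 (1663 nuclei) had 11.8 CPM. Sub-cluster values are scaled to all UMIs of the sub-cluster.

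In non-neuronal nuclei most members were lower than in neurons, at levels set here beside those of markers of excitatory neurons. The 10 markers of excitatory neurons with at least 10 CPM there stood in oligodendrocytes at 9.25% to 42.6% of their excitatory level, in microglia at 15.3% to 40.1%, in OPCs at 6.17% to 37.9% and in astrocytes at 7.76% to 21.5%. The medians of the markers were 22.0%, 30.5%, 13.7% and 11.2% in the same order. In OPCs the upper end was Arpp21 alone (770 CPM), and the next marker, Neurod6, stood at 17.2%. Cntnap2 and Cntnap5c, at 23.1% each in OPCs, lay between these markers. In oligodendrocytes 6 members stood at 17.4% to 29.5%, inside the range of the markers, and Cntnap3 at 68.1% of an excitatory level of only 13.4 CPM. In microglia Cntnap4, Cntnap5a and Cntnap5b were inside the range of the markers. Cntnap1 (46.0%), Cntnap2 (49.2%), Cntnap5c (53.7%) and Cntnap3 (122%) were above it there. In OPCs Cntnap5b stood at 42.8% (130 CPM) and Cntnap4 at 40.5% (44.8 CPM), above the range, as did Cntnap1 (50.8%, 9 UMIs in all) and Cntnap3 (50.1%, 11 UMIs in all). In astrocytes Cntnap4, Cntnap5a and Cntnap5b were inside the range, while Cntnap2 (22.5%), Cntnap5c (29.9%), Cntnap1 (40.1%, 4 UMIs in all) and Cntnap3 (66.8%, 11 UMIs in all) were above it. Endothelial cells and pericytes, the smallest population, held Cntnap2 at a mean of 2344 CPM (427 UMIs) and Cntnap5a at 705 CPM (126 UMIs), against 2868 and 784 CPM in excitatory neurons. Their marker levels were not compared. Median depth was 879.5 to 1032 UMIs per nucleus in microglia and 7148 to 8685 in excitatory neurons. The part of free RNA in these levels was not tested.

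The comparison of Control with CrT-KO asks which transcripts differ in which cells when the creatine transporter is missing. In excitatory neurons 1 of the 7 genes, Cntnap5c, passed the test at an adjusted p under 0.1, where 0.152% of the 13802 genes tested did. Since this contrast entered the choice of the family, nothing is read from that count. Cntnap5c stood at 119 and 131 CPM in Control and at 188 and 180 CPM in CrT-KO. Both CrT-KO libraries were above both Control libraries, as for 18.2% of all genes tested. Its log2 fold change came to 0.56 ± 0.074 (SE) with an edgeR adjusted p of 0.0105, and it was called under all 12 alternatives, with adjusted p from 6.24e-07 to 0.0180. With each of the 25 excitatory clusters held at its share over all libraries, the log2 ratio was 0.48. That ratio is of levels scaled to all UMIs of a cluster, so it and 0.56 differ in scaling as well as in shares. Of 14 such ratios over both neuronal classes, 3 moved by more than 1 SE from the fold change, all in excitatory neurons. They were those of Cntnap5c, Cntnap5b (0.15 against 0.22) and Cntnap4 (-0.13 against -0.017).

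**Figure D2:**
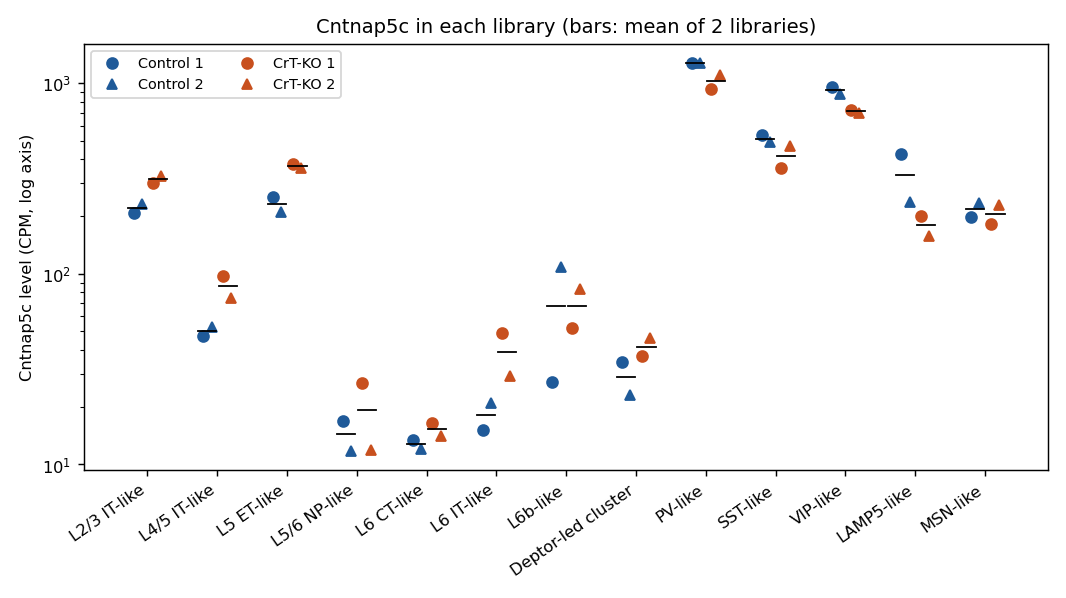
Cntnap5c level in each library (y axis, CPM, log scale) by excitatory layer, Deptor-led cluster and inhibitory subclass. Blue marks Control and orange CrT-KO, circles replicate 1 and triangles replicate 2, and black bars the mean of 2 libraries. In L2/3 IT-like, L4/5 IT-like and L5 ET-like nuclei both CrT-KO points lie above both Control points, and in LAMP5-like, VIP-like, PV-like and SST-like nuclei both lie below both Control points.

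The difference of Cntnap5c was called in 3 excitatory layers, though each of these calls was lost when 1 library or 1 sub-cluster was left out. In L2/3 IT-like nuclei it stood at 209 and 233 CPM in Control and at 300 and 326 CPM in CrT-KO (log2 fold change 0.50 ± 0.087 SE, adjusted p 0.00483 by edgeR, with 0.880% of genes called). In L4/5 IT-like nuclei the levels were 47.0 and 52.9 CPM in Control and 97.4 and 75.0 CPM in CrT-KO (0.79 ± 0.13 SE, adjusted p 0.00832 by edgeR, with 0.566% called). In L5 ET-like nuclei they were 252 and 212 CPM in Control and 378 and 359 CPM in CrT-KO (0.66 ± 0.11 SE, adjusted p 0.00566 by edgeR, with 0.141% called). The genotypes did not overlap in any of these layers, nor did they for 38.3%, 37.3% and 36.3% of all genes tested in them. The L2/3 IT-like call was lost without CrT-KO 1 (log2 fold change 0.56) and without CrT-KO 2 (0.44). Those fits leave 1 CrT-KO library, and the calls of all other genes in this layer were lost in them as well. With no filter on low counts the L2/3 IT-like call of Cntnap5c was also lost (0.50), and edgeR called 4 of 17042 genes. The L5 ET-like call was lost without CrT-KO 1 (0.63). In L4/5 IT-like nuclei the sub-cluster led by Tmem132c, Igf1 and Adamts6, 305 of the 2485 nuclei and without an L4/5 IT marker among its leading genes, held 84.3% of the Cntnap5c UMIs. It had 271 and 277 CPM in Control and 532 and 444 CPM in CrT-KO, and the other 3 sub-clusters had 8.56 to 11.6 CPM in Control and 12.0 to 20.3 CPM in CrT-KO. Without it the log2 fold change was 0.76 and was not called (edgeR adjusted p 0.326), an alternative chosen after these values were seen. In L2/3 IT-like nuclei the sub-cluster led by Plpp4, Unc13c and Ndst4 (1017 of the 4127 nuclei) had no L2/3 IT marker among its leading genes. Its Cntnap5c level was 790 CPM, and no fit was run without it. The log2 fold change over all alternatives was 0.43 to 0.58 in L2/3 IT-like, 0.55 to 0.80 in L5 ET-like and 0.59 to 0.96 in L4/5 IT-like nuclei.

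Cntnap5c did not pass in the other excitatory layers or in the unnamed Deptor-led cluster. Fold changes on the log2 scale, with their edgeR adjusted p, were 1.17 ± 0.38 (SE, p 0.377) in L6 IT-like nuclei, 0.52 ± 0.17 (0.286) in the Deptor-led cluster, 0.43 ± 0.46 (0.992) in L5/6 NP-like, 0.27 ± 0.20 (0.864) in L6 CT-like and -0.037 ± 0.35 (0.997) in L6b-like nuclei. The shares of genes called there were 0.681%, 0.597%, 0.0602%, 0.197% and 0% in the same order. L5/6 NP-like and L6 IT-like nuclei held only 50 and 76 UMIs of the gene in all. In L6b-like nuclei the Control libraries alone ranged from 27.1 to 109 CPM. Whether the effect of genotype on Cntnap5c differs between the 7 layers was tested as an interaction and did not pass (edgeR adjusted p 0.834), but passed under 2 of 10 alternatives, with no filter on low counts (0.0477) and without Control 1 (0.0331).

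Within excitatory sub-clusters the mean of Cntnap5c was higher in CrT-KO in 18 of 25 and lower in 7. The sub-clusters share the same 4 libraries, and the matching counts for other genes were not made. The sub-cluster with the highest level, led by Plpp4, held 656 and 727 CPM in Control and 843 and 933 CPM in CrT-KO. In a sub-cluster with little of the gene, led by Rorb, Tspan11 and Pld5, the values were 11.5 and 9.07 CPM against 20.3 and 12.0 CPM. The CrT-KO mean was thus higher at high and at low levels of the gene, in 18 sub-clusters and not in the other 7, as a description with no test.

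Markers of other populations were set beside this result. The summed level of the 10 inhibitory markers in excitatory neurons was 104.5 to 120.5 CPM in Control and 107.8 to 118.0 CPM in CrT-KO, with none at 0 and with overlap. The 9 OPC markers summed to 364 to 390 CPM in Control and 413 to 434 CPM in CrT-KO without overlap, none at 0, and Cntnap5c in OPCs themselves (mean 35.6 CPM) was below excitatory neurons. In L5 ET-like nuclei the inhibitory markers summed to 45.1 to 50.3 CPM in Control and 58.2 to 62.7 CPM in CrT-KO, with 2 of 10 at 0, and the OPC markers to 141 to 157 CPM against 182 to 200 CPM, with 3 of 9 at 0. In L2/3 IT-like nuclei the OPC markers summed to 407 to 446 CPM in Control and 483 to 492 CPM in CrT-KO, and in L4/5 IT-like nuclei they overlapped. Their part in the result was not tested.

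The remaining members did not pass in excitatory neurons. Cntnap5b stood at 287 and 274 CPM in Control and at 326 and 326 CPM in CrT-KO (log2 fold change 0.22 ± 0.067 SE, adjusted p 0.369 by edgeR), without overlap. The other values were 0.084 (SE 0.074) for Cntnap5a, 0.074 (SE 0.071) for Cntnap2, -0.017 (SE 0.077) for Cntnap4, -0.021 (SE 0.14) for Cntnap1 and -0.21 (SE 0.23) for Cntnap3. For Cntnap2, the most abundant member, the libraries were at 2684 and 2904 CPM in Control and at 2823 and 3059 CPM in CrT-KO and overlapped.

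**Figure D3:**
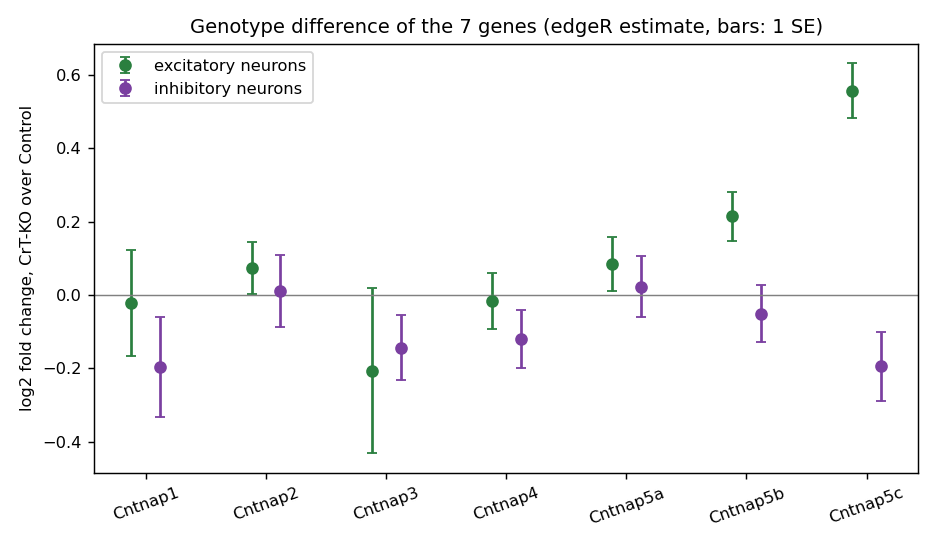
Log2 fold change of CrT-KO over Control (y axis, points, with bars of 1 SE from edgeR) for the 7 genes in excitatory (green) and inhibitory neurons (purple). Cntnap5c lies at 0.56 in excitatory and -0.19 in inhibitory neurons, and the other genes lie between -0.21 and 0.22.

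In inhibitory neurons none of the 7 genes passed in edgeR, also none at an unadjusted p under 0.05 and none in DESeq2. Of the 12878 genes tested, edgeR called 0.0544%, and 5.02% had an unadjusted p under 0.05. Cntnap5c stood at 589 and 557 CPM in Control and at 446 and 556 CPM in CrT-KO (log2 fold change -0.19 ± 0.095 SE, adjusted p 0.993 by edgeR). The CrT-KO libraries lay below both Control libraries, as the genotypes did not overlap for 33.3% of all genes, but Control 2 and CrT-KO 2 were within 1 CPM of each other. The value was negative in each of the 5 subclasses. In PV-like nuclei the libraries held 1270 and 1271 CPM in Control and 937 and 1109 CPM in CrT-KO (-0.31 ± 0.084 SE, adjusted p 0.467 by edgeR). LAMP5-like nuclei gave -0.82 ± 0.20 (SE, edgeR adjusted p 0.288), VIP-like nuclei -0.37 ± 0.12 (0.949), SST-like nuclei -0.31 ± 0.11 (0.594) and MSN-like nuclei -0.083 ± 0.12 (0.961). The genotypes overlapped in MSN-like nuclei and not in the other subclasses, where the share of all genes without overlap was 35.3% in PV-like, 34.1% in LAMP5-like, 33.4% in VIP-like and 34.3% in SST-like nuclei. None of these values passed the test, which 0.0104% of genes did in PV-like, 0.0164% in LAMP5-like, 0.0137% in VIP-like, 0.155% in SST-like and 0.0394% in MSN-like nuclei. In PV-like nuclei the call was made with total UMI scaling (edgeR adjusted p 0.0545) and with no filter on low counts (0.0284), and in LAMP5-like nuclei with no filter (0.00976). Without CrT-KO 2 calls were made in PV-like (-0.44, edgeR adjusted p 0.00689) and SST-like nuclei (-0.52, 0.0135), and without Control 2 in LAMP5-like nuclei (-1.22, 1.29e-05), in fits that leave 1 library in a group.

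The difference between the classes was tested itself. The log2 effect of genotype on Cntnap5c in inhibitory neurons minus that in excitatory neurons was -0.77 ± 0.097 (SE), with an edgeR adjusted p of 0.00106 for the interaction with library as a block, and 1 of the 7 genes passed, against 0.0998% of 14026 genes. It passed under all 10 alternatives, with the difference between -0.95 and -0.57. One of these, chosen after the data were seen, left out the inhibitory sub-clusters led by excitatory markers and gave -0.80 (edgeR adjusted p 0.00116). For Cntnap5b the difference was -0.27 ± 0.064 (SE, edgeR adjusted p 0.207), and it passed under 2 of 10 alternatives (lowest edgeR adjusted p 0.0262, with no filter on low counts).

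**Figure D4:**
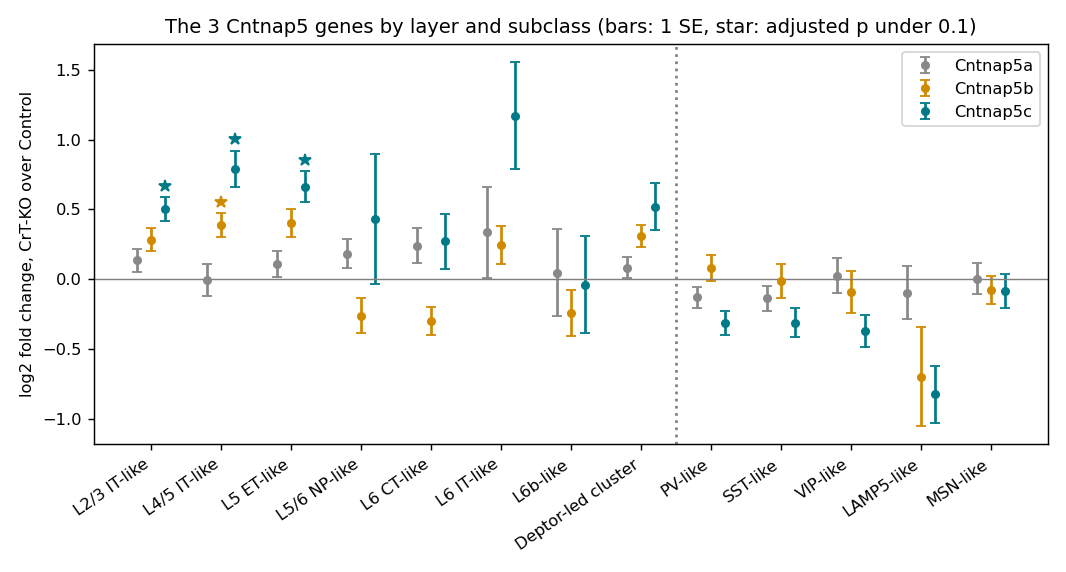
Log2 fold change of CrT-KO over Control (y axis, points, with bars of 1 SE from edgeR) for Cntnap5a (grey), Cntnap5b (ochre) and Cntnap5c (teal) by excitatory layer, Deptor-led cluster and, right of the dotted line, inhibitory subclass. Stars mark an adjusted p under 0.1, which Cntnap5c reached in L2/3 IT-like, L4/5 IT-like and L5 ET-like nuclei and Cntnap5b in L4/5 IT-like nuclei.

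Cntnap5b differed by layer. In L4/5 IT-like nuclei, where it had its highest layer mean, the libraries held 465 and 433 CPM in Control and 561 and 614 CPM in CrT-KO (log2 fold change 0.39 ± 0.084 SE, adjusted p 0.0501 by edgeR). That call was made under 9 of 13 alternatives and not with total UMI scaling, at a threshold of 0.05, without Control 2 or without CrT-KO 2 (edgeR adjusted p up to 0.222). L5 ET-like nuclei gave 0.40 ± 0.10 (SE, edgeR adjusted p 0.201) and L2/3 IT-like nuclei 0.28 ± 0.082 (0.155), again without overlap. The Deptor-led cluster had 361 and 370 CPM in Control and 467 and 438 CPM in CrT-KO, also without overlap (0.31 ± 0.080 SE, adjusted p 0.139 by edgeR). With no filter on low counts Cntnap5b was called in L5 ET-like nuclei (0.0889) and in the Deptor-led cluster (0.0262) by edgeR's adjusted p. In L6 CT-like nuclei the levels were 145 and 134 CPM in Control and 114 and 113 CPM in CrT-KO (-0.30 ± 0.098 SE, adjusted p 0.402 by edgeR), and L5/6 NP-like nuclei gave -0.26 ± 0.13 (0.844). Genotypes without overlap were found for 36.3% of all genes in L6 CT-like, 33.7% in L5/6 NP-like and 37.5% in L6 IT-like nuclei. In the Deptor-led cluster they were found for 3912 of the 10550 genes tested. The interaction of genotype with the 7 layers passed for Cntnap5b (edgeR adjusted p 0.00167), where 1.11% of 11047 genes did, and for no other member. For Cntnap5b it passed under all 10 alternatives, with edgeR adjusted p from 4.79e-09 to 0.0650. For Cntnap4 (edgeR adjusted p 0.384) it passed under 2 of 10, the lowest being 0.00141 with no filter on low counts.

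**Figure D5:**
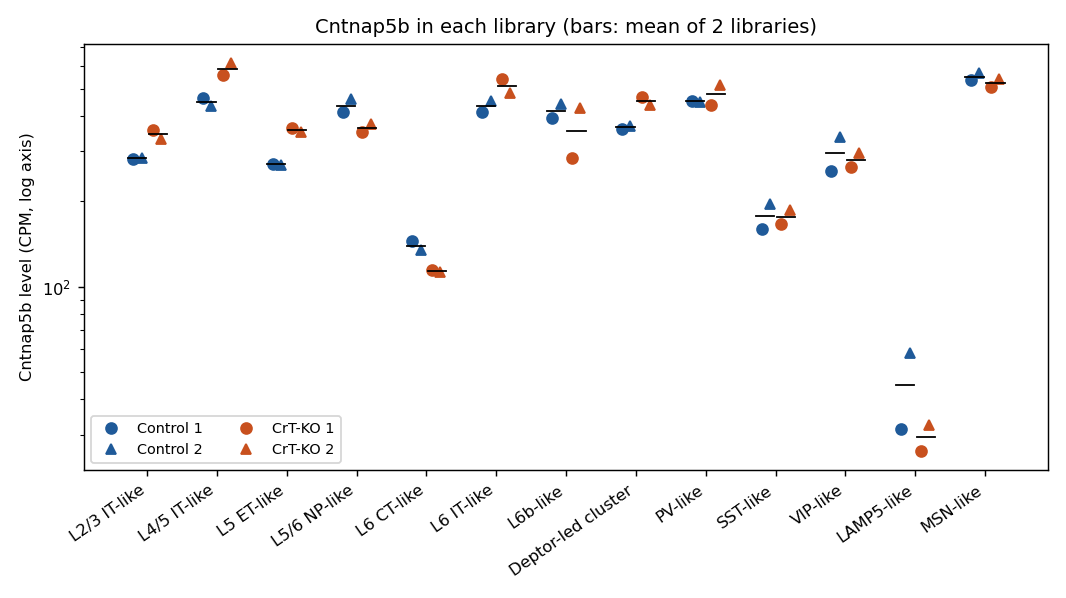
Cntnap5b level in each library (y axis, CPM, log scale) by excitatory layer, Deptor-led cluster and inhibitory subclass, with symbols as in the plot of Cntnap5c by library. Both CrT-KO points lie above both Control points in L2/3 IT-like, L4/5 IT-like, L5 ET-like and L6 IT-like nuclei and the Deptor-led cluster and below them in L5/6 NP-like and L6 CT-like nuclei.

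In sub-clusters the direction of Cntnap5b was mixed as well, with a higher CrT-KO mean in 10 of 25 excitatory sub-clusters and a lower one in 15. The sub-cluster led by Rorb held 688 and 652 CPM in Control and 902 and 860 CPM in CrT-KO, and that led by Tmem132c, in which Cntnap5c was higher in CrT-KO, held 450 and 366 CPM against 236 and 318 CPM.

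Cntnap5a gave log2 fold changes from -0.14 in SST-like to 0.34 in L6 IT-like nuclei over the neuronal subclasses and layers, with no call. Outside neurons, Cntnap4 in OPCs stood at 17.6 and 28.7 CPM in Control and at 61.2 and 71.6 CPM in CrT-KO from 73 UMIs in all (log2 fold change 1.48 ± 0.36 SE, adjusted p 0.331 by edgeR). Cntnap2 in OPCs stood at 472 and 587 CPM in Control and at 702 and 888 CPM in CrT-KO (0.57 ± 0.15 SE, adjusted p 0.465 by edgeR). No member passed in edgeR or in DESeq2 in astrocytes, oligodendrocytes, OPCs, microglia or endothelial cells and pericytes, where 2 to 6 of the 7 genes passed the filter on low counts and 0.0202%, 0.0328%, 0.0504%, 0.0276% and 0.0638% of all genes tested were called in that order. At an unadjusted p under 0.05 there were 1 in astrocytes, 2 in oligodendrocytes, 3 in OPCs, 1 in microglia and 0 in endothelial cells and pericytes, where 4.51%, 6.51%, 5.86%, 5.50% and 6.13% of all genes had one. Without Control 2 or without CrT-KO 1, 2 members were called in OPCs, with 0.350% and 0.354% of all genes.

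Cntnap2 and the 3 Cntnap5 genes are long, so all genes of 500 kb or more were counted beside them. In excitatory neurons 65.9% of the 226 such genes had a positive log2 fold change (median 0.061), against 48.5% of all genes (median -0.0064), and in inhibitory neurons 54.9% (median 0.0087) against 48.8%. Of these long genes 2 of 226 were called in excitatory neurons and 23 of 225 in L2/3 IT-like nuclei. In L4/5 IT-like nuclei 17 of 221 were called, and in L5 ET-like nuclei 4 of 218. Cntnap5c was among them each time, and Cntnap5b in L4/5 IT-like nuclei. Of all genes tested, 0.152%, 0.880%, 0.566% and 0.141% were called there in the same order. The log2 fold changes of Cntnap5c in these populations were above the median of the long genes, and the part of gene length in them was not tested.

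Known partners of the family did not pass in edgeR. The list held 34 genes, all counted, in 5 roles, and edgeR called none in any population, with 0 to 6 at an unadjusted p under 0.05 in each. The 6 were in L4/5 IT-like nuclei, where 8.26% of all genes had such a p, and this share was 4.45% to 8.90% over the populations. DESeq2 called 1, the contactin Cntn4 in L6 CT-like nuclei, with a log2 fold change of -0.34 and a DESeq2 adjusted p of 0.0943, against 0.107 by edgeR. In excitatory neurons 26 of the 34 had a positive log2 fold change and 8 a negative one (median 0.043, against -0.0064 over all genes tested), and 1, Ank2, had an unadjusted p under 0.05, as did 8.73% of all genes. In inhibitory neurons 20 were positive and 14 negative (median 0.0061). The 2 most abundant genes of each role were, among contactins, Cntn5 and Cntn4, with excitatory log2 fold changes of 0.11 (SE 0.064) and -0.089 (SE 0.066). Among the L1 family, which includes the glial and axonal neurofascins, they were Nrcam (-0.0016, SE 0.065) and Nfasc (0.027, SE 0.066). In the juxtaparanodal potassium channel complex, Kcnab1, a Kv1 channel beta subunit, had 0.14 (SE 0.068) and Adam22, the receptor of Lgi1, 0.10 (SE 0.065). For the ankyrins of the membrane scaffold the values were 0.15 (SE 0.065) for Ank2 and 0.11 (SE 0.071) for Ank3, and for the PDZ scaffolds 0.019 (SE 0.067) for Dlg2 and 0.11 (SE 0.065) for Dlg1. All 10 had edgeR adjusted p of 0.534 or more there.

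The genes whose level was most like that of each member over the 19 named populations, by Pearson's r of log2(CPM + 1), are given as a description. The populations share libraries and nest within each other, so no p is given. For Cntnap1 they were Ppip5k1 (r = 0.91), Lca5l (0.91) and Cplx1 (0.90), and for Cntnap2 Fgf9 (0.92), Clvs1 (0.89) and Lca5l (0.88). For Cntnap3 they were Nhs (0.82), Rerg (0.80) and Mme (0.78), and for Cntnap4 Elavl2 (0.87), Grip2 (0.86) and Mast2 (0.78). For Cntnap5a they were Nrg4 (0.85), Cdh7 (0.81) and Epha6 (0.80), for Cntnap5b D430041D05Rik (0.87), Cacna1i (0.85) and Map1b (0.85), and for Cntnap5c Cdh7 (0.90), Camk1g (0.80) and Vstm2l (0.79). Within the family the closest pair was Cntnap1 with Cntnap2 (0.83) and the least alike was Cntnap4 with Cntnap5a (0.14). Among the Cntnap5 genes r was 0.70 for Cntnap5a with Cntnap5c, 0.46 for Cntnap5a with Cntnap5b and 0.25 for Cntnap5b with Cntnap5c.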

How the data were processed

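Right cortices of 2 Control and 2 CrT-KO mice were profiled by snRNA-seq, 1 sorted nuclei library per animal. The deposited values are raw UMI counts per gene and nucleus, which the authors made with Cell Ranger 3.1.0 on mm10 (GRCm38) with introns counted, and filtered to nuclei. FastQC and Seurat 3.1.4 are also named in the submitters' processing notes. Cell types were not taken from the authors and were rebuilt here, so names may differ from theirs.

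Scrublet (scanpy 1.11.5) marked 1213 of 35694 nuclei as doublets, which were left out. The rest were clustered on 3000 variable genes without the 7 members, 30 principal components, 20 neighbours and Leiden resolution 1.0, and clusters were named from listed markers. UMI counts were summed per library and population and tested in edgeR 4.0.16 (quasi-likelihood, TMM, filterByExpr with a minimum count of 10, Benjamini-Hochberg over all genes tested, call at an adjusted p under 0.1). DESeq2 1.42.0 was an alternative. CPM are UMI counts per 1000000 of the TMM-scaled library. Interaction tests kept the library as a block. The edgeR genotype fit and the interaction test between excitatory and inhibitory neurons were tried on simulated counts, and the other steps were not. P-values rest on 2 animals per group.

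The genes named were the 7 members where the 4 libraries held at least 20 UMIs (others only in ranges or with their UMIs), Slc6a8, per member the 3 genes most alike in level, and per role of the partner list the 2 most abundant and any called. The members and lists were chosen with earlier results of these data known.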

Additional observations from a re-analysis of the deposited data

Results flagged for a closer look

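The genotype effect on Cntnap5c differed between neuronal classes when the difference itself was tested. Its log2 value in inhibitory neurons minus that in excitatory neurons was -0.77 (edgeR adjusted p 0.00106), from 0.56 in excitatory and -0.19 in inhibitory neurons, where only the former passed by itself. The effect on Cntnap5b differed among the 7 excitatory layers (edgeR adjusted p 0.00167 for the interaction), with log2 fold changes from -0.30 in L6 CT-like to 0.40 in L5 ET-like nuclei. Genotype differences of these libraries entered the choice of the family, so neither value is independent evidence.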

How the results depend on the processing

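With 2 animals per group, calls depended on single libraries, also some far below the threshold, such as Cntnap5c in L2/3 IT-like and L5 ET-like nuclei. The Cntnap5c call in excitatory neurons, its class difference and the Cntnap5b layer difference held under every alternative run for them. The Cntnap5c call in L4/5 IT-like nuclei was lost only without the Tmem132c-led sub-cluster, which left 1 member called there, Cntnap5b. Genes called numbered 21 in excitatory neurons, 58 with DESeq2, 32 with no filter on low counts, 13 at a threshold of 0.05 and 96 to 161 with a library left out. In inhibitory neurons they numbered 7, 43 with no filter, 11 with doublets kept, 24 without the sub-clusters led by excitatory markers and 30 to 69 with a library left out. Both alternatives on sub-clusters were chosen after the data were seen. For the class difference they numbered 14, 140 with no filter and 69 to 83 with a library left out, and for the layer difference 123, 319 and 62 to 146. The cause of these shifts was not tested.

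The replicate numbers of the labels give only 2 pairs, and same-numbered libraries deviated together with a correlation of 0.163 in excitatory and 0.140 in inhibitory neurons, so they were not taken as pairs. With the replicate block 338 genes were called in excitatory and 58 in inhibitory neurons and 28 for the class difference. With the block 2 members were called in excitatory neurons, OPCs, L2/3 IT-like and L5 ET-like nuclei, 1 in PV-like, SST-like, LAMP5-like and L6 IT-like nuclei and 3 in the Deptor-led cluster. The calls gained were Cntnap5b in excitatory neurons (edgeR adjusted p 0.0670), L2/3 IT-like (0.00321) and L5 ET-like nuclei (0.0242) and the Deptor-led cluster (0.00915), and Cntnap5c in PV-like (0.000769), SST-like (0.0456), LAMP5-like (0.0939) and L6 IT-like nuclei (0.0619) and the Deptor-led cluster (0.0345), with Cntnap4 in the Deptor-led cluster (0.0118) and OPCs (0.0141) and Cntnap2 in OPCs (0.00169). Over all genes the block called 2.45% in excitatory neurons, 4.56% in L2/3 IT-like, 2.96% in L6 IT-like, 2.50% in the Deptor-led cluster and 0.0329% to 0.803% in the other populations just named.

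Members called with no filter were 1 in PV-like and LAMP5-like, 0 in L2/3 IT-like and 2 in L5 ET-like nuclei and 3 in the Deptor-led cluster, where 0.173%, 0.108%, 0.0235%, 0.245% and 1.02% of all genes were called. With total UMI scaling they were 1 in PV-like and 1 in L4/5 IT-like nuclei (0.146% and 0.302% of all genes), and 1 in the latter at a threshold of 0.05. With a library left out they were 1 to 2 in excitatory neurons and L4/5 IT-like nuclei, 0 to 2 in OPCs and the Deptor-led cluster, and 0 to 1 in astrocytes, microglia, LAMP5-like, VIP-like, PV-like, SST-like, L2/3 IT-like, L5 ET-like, L6 IT-like and L6b-like nuclei. Over all genes such fits called 0.682% to 1.15% in excitatory neurons and 0% to 1.89% in the other populations named here.

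The sign turned for Cntnap2 in inhibitory neurons with total UMI scaling (-0.0055) and without the sub-clusters led by excitatory markers (-0.0018), for Cntnap5b in SST-like nuclei with doublets kept (0.052), and for Cntnap5c in L6b-like nuclei with DESeq2 (0.0029) and the replicate block (0.10). With a library left out it turned in excitatory neurons for Cntnap1 (-0.21 to 0.14), Cntnap3 (-0.59 to 0.31), Cntnap4 (-0.085 to 0.054) and Cntnap5a (-0.0095 to 0.17), and in inhibitory neurons for Cntnap2 (-0.057 to 0.084) and Cntnap5a (-0.018 to 0.070). It also turned for Cntnap5b in PV-like (-0.040 to 0.19), SST-like (-0.15 to 0.14), VIP-like (-0.27 to 0.12) and L6b-like nuclei (-0.55 to 0.048), and for Cntnap5c in MSN-like (-0.25 to 0.081), L5/6 NP-like (-0.26 to 0.89) and L6b-like nuclei (-0.71 to 1.30, the last without Control 2 and with an edgeR adjusted p of 0.0189). None of these was called in the full data. Of 925 levels recomputed, 484 were means with a library left out, which cannot move by 1 SD between the 4 libraries. Among the others 27 moved by more than 1 SD, and 21 of these were among the 121 with doublets kept.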

Other observations

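The sub-clusters held further extremes of level. The PV-like sub-cluster of 55 nuclei led by Unc5b, Mctp2 and Egfl6, which had the highest Cntnap5b, was also the highest of the 28 inhibitory sub-clusters in Cntnap2 (19192 CPM) and Cntnap5a (1919 CPM). The PV-like sub-cluster led by Adamts5, Opn3 and Gna14 (126 nuclei) was the highest in Cntnap4 (1100 CPM) and Cntnap3 (348 CPM), and that led by Myof, Nxph2 and Creb5 (547 nuclei) in Cntnap5c (1520 CPM). No PV marker was among the leading genes of these PV-like sub-clusters. Among excitatory sub-clusters, an unnamed one led by Itprid1, Htr4 and Sncaip (472 nuclei) was the highest in Cntnap2 (6818 CPM) and the lowest in Cntnap5b (16.8 CPM). These sub-clusters were picked for their levels, so the values are a description with no test.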
